A study of Homo sapiens with 6 samples.

Results

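In lenalidomide-resistant myeloma cells, a small set of genes stood far from their level in solvent-treated cells. The genes described here differed at least 3-fold between lenalidomide-resistant (LenR) and solvent-treated (WT) cultures of MM.1S, a human myeloma cell line, that is, one derived from malignant plasma cells. Of 12760 genes in the deposited table, 111 met the rule, 61 of them higher in LenR and 50 lower. The rule took the mean of the LenR libraries plus 0.1 FPKM over the mean of the WT libraries plus 0.1 FPKM, where FPKM counts fragments per kilobase of gene, relative to the depth of the library. A gene was a member when this ratio was at least 3 or at most its inverse, when the 3 values of one group did not overlap the 3 of the other, and when the larger group mean was at least 0.5 FPKM. Of 133 genes past the fold limit, 126 also reached the level and 123 also showed no overlap. The rule leaves out 13 genes by name, of which 12 met the limits. Since the members were chosen by these same FPKM values, their folds and group differences are given as a description, without a test.

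LenR cells were raised from MM.1S under continuous lenalidomide, beginning at 10 nM with 10-fold steps every month for 3 months, and WT cells were carried in DMSO over the same time. The labels give every sample the genotype WT, so LenR is a selected and not an engineered line. Total RNA was sequenced from 3 cultures of each group. Whether the LenR cultures held drug at harvest, and whether they stem from separate selections, is not given in the sources used here, so the spread between libraries may be partly technical.

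Lenalidomide acts through cereblon, which recruits substrates to a ubiquitin ligase, and makes the ligase degrade the transcription factors IKZF1 and IKZF3, on which myeloma cells depend. A gene at a few hundredths of an FPKM is effectively silent in a culture, and one at a few FPKM is transcribed weakly, or in a part of the cells, which bulk RNA cannot tell apart. Myeloma cells keep the program of secreting plasma cells while most genes of other lineages are silent.

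The libraries held 14500140 to 17387914 reads. The plasma cell markers SDC1 (349.7 FPKM in LenR and 255.1 FPKM in WT), TNFRSF17 (279.5 FPKM in LenR and 235.9 FPKM in WT) and IRF4 (221.5 FPKM in LenR and 175.5 FPKM in WT) were high in both groups, 8 of 8 myeloid markers and the B cell markers MS4A1 and PAX5 were not among the table's genes, and no marker of the 6 cell types checked was a member. On a wider myeloid list, 6 genes were in the table, none of them a member, and 4 of the 6 rose (median log2 fold change 0.74) in limma, a linear model fitted across 11276 genes, at an adjusted p of 0.05, where 8.57% of all genes were called higher and 6.57% lower. NCF1, an oxidase subunit gene with near-identical copies, was at 10.85 ± 0.726 FPKM in LenR and 5.12 ± 0.562 FPKM in WT (log2 fold change 0.95, adjusted p = 0.000356), and CYBB, the catalytic subunit of the same oxidase, at 11.9 ± 1.40 FPKM in LenR and 6.27 ± 0.241 FPKM in WT (0.82, adjusted p = 0.000709; mean ± SD, n = 3 each, as for all values with ±). Of the B cell markers, CD79B was called lower (log2 fold change −0.48, adjusted p = 0.0188 by limma), but not in 4 of 17 alternatives. The part of these myeloid and B cell genes in the members' differences was not tested. On the second principal component, with 26.8% of the variance, LenR replicate 2 and WT replicate 3 lay apart from the other libraries. Without these 2 libraries the rule took 67 higher and 51 lower genes, which included 55 of the 61 and 44 of the 50. WT replicates 1 and 2 were nearly alike in their reads (median chi-square over its expected value 1.167, against 3.866 for the next closest pair).

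The members were genes of low level. The 61 higher members had a median of 1.90 FPKM in LenR (0.504 to 8.14) and of 0.291 FPKM in WT (0.0226 to 2.38). The 50 lower members had a median of 0.511 FPKM in LenR (0.0165 to 4.79) and of 2.58 FPKM in WT (0.506 to 17.2). For 108 of the 111, the larger group mean was under the table's median of 10.5 FPKM. The 111 members were 0.87% of the table, the higher members 0.478% and the lower members 0.392%, which are also the shares that the rule itself fixes. Lack of overlap alone was common: 4530 genes, 35.5% of the table, had it in one direction or the other.

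Folds were larger among the higher genes than among the lower genes. The median fold was 4.28 (LenR over WT) for the higher members and 3.57 (WT over LenR) for the lower, 22 and 10 genes differed at least 5-fold, and 7 and 0 at least 10-fold. The counts at 10-fold rest on the added 0.1 FPKM: with 0.01 FPKM added they were 12 and 5, the lower ones being RIMBP2, PXDN, ADGRE2, AP3B2 and LRRC3, and the median folds 5.46 and 4.26. The low group averaged under 0.1 FPKM for 12 higher and 8 lower members, so "switched" describes these few better than the rest. No member lacked reads in all 3 libraries of a group. In 36 of the higher and 16 of the lower members at least 1 library had under 10 reads, and these folds carry a large counting error. Just inside the limit lay CD226 (3.001-fold), PRR18 (3.011) and BMPR1B (3.053) on the higher side, and just outside IGSF1 (2.978), HMP19 (2.972) and MIR1204 (2.94). On the lower side the LenR over WT ratios were 0.3296 for LOC101927021, 0.3281 for ZNF175 and 0.3274 for S100A6 inside, and 0.3352 for LINC00403, 0.3363 for BZRAP1 and 0.3381 for BCL6 outside.

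**Figure D1:**
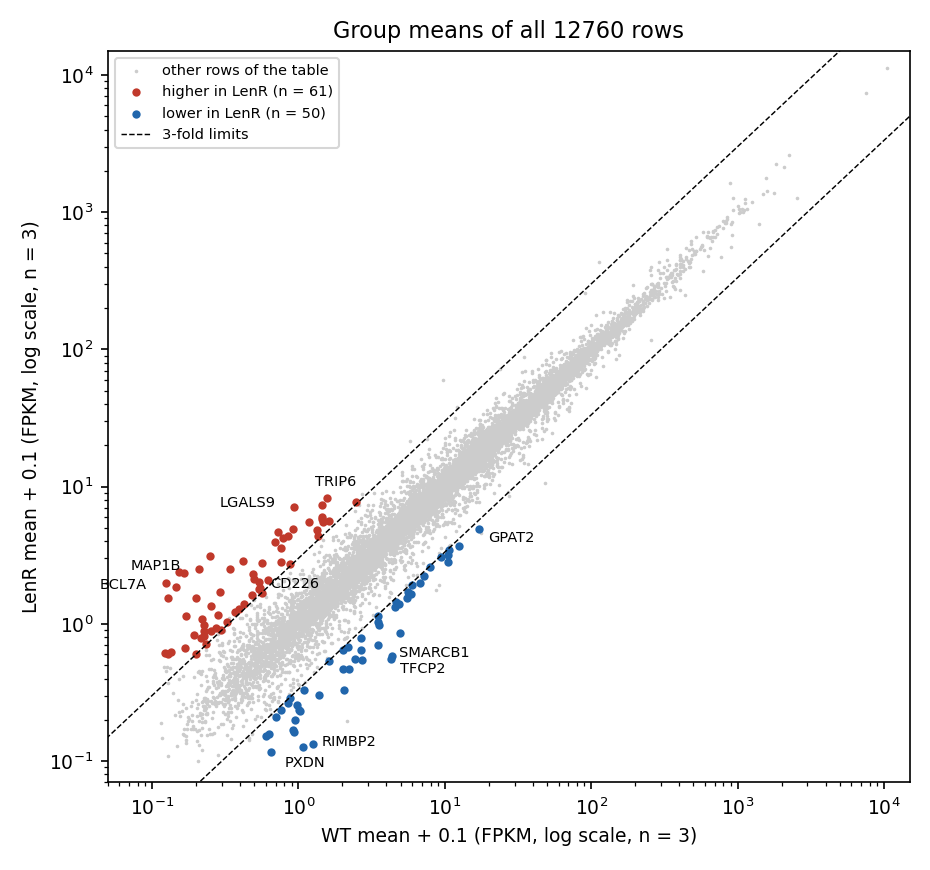
Mean level of each of the 12760 genes in LenR (vertical) and in WT (horizontal), in FPKM plus 0.1 on log axes, with 3 libraries behind each mean; coloured points are the 61 higher and 50 lower members and dashed lines the 3-fold limits; grey points past a line were too low, overlapped or are left out by name. The members lie at the low end of both axes, with larger group means of at most 8.14 FPKM for the higher and 17.2 FPKM for the lower genes.

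The member with the highest fold was BCL7A, which encodes an accessory subunit of the SWI/SNF chromatin remodelling complexes (chromosome 12, 122021884 to 122062044, GRCh38). BCL7A had 1.83, 2.15 and 1.72 FPKM in LenR replicates 1 to 3, against 0.0452, 0.0319 and 0 FPKM in WT replicates 1 to 3. These values rest on 101, 129 and 114 reads in LenR and on 3, 2 and 0 reads in WT, a ratio of 70.4 after scaling to library totals (95% interval 29.9 to 218, counting error only). The rule's fold, which the added 0.1 FPKM holds down, was 15.9. The other SWI/SNF gene among the members went the other way, but not in every WT library. SMARCB1, a core subunit and a tumour suppressor of rhabdoid tumours (chromosome 22), had 0.585, 0.445 and 0.336 FPKM in LenR and 4.65, 0.744 and 7.09 FPKM in WT. WT replicate 2, with 42 reads, lay close to the LenR libraries, although it was nearly alike to WT replicate 1 across the table. SMARCB1 also overlaps DERL3 (1.95 FPKM in LenR and 2.47 FPKM in WT), and the counting length of 3406 bases was 0.206 of the union of its GENCODE exons. None of the 16 other SWI/SNF and BCL7 genes tested passed the threshold in limma, where 8.57% of all genes were called higher and 6.57% lower. The core ATPase gene SMARCA4 had 63.3 ± 10.4 and 63.3 ± 6.75 FPKM in LenR and WT.

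POU5F1B and CASC21 followed, at 15.6-fold and 14.0-fold, and are neighbours on chromosome 8. POU5F1B is a retrotransposed copy of the pluripotency factor gene POU5F1. It had 2.25, 2.19 and 2.42 FPKM in LenR and 0.0719, 0 and 0.0864 FPKM in WT. CASC21, a noncoding RNA gene 20.8 kb from it, had 2.11, 2.27 and 2.35 FPKM in LenR and 0.0974, 0.103 and 0 FPKM in WT. The WT libraries held 2 CASC21 reads in all and the LenR libraries 63, a ratio of 32.2 (95% interval 8.56 to 272). In both genes all LenR libraries were close together and all WT libraries near 0. The pair lies among genes that were also higher: all 4 other tested genes within 1 Mb were above 0 and called, with a median log2 fold of 0.87. POU5F1 itself was not among the table's genes, and how reads shared by the parent gene and its copy were counted is not known here.

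MAP1B, a microtubule-associated protein of neurons (chromosome 5, 72107475 to 72209565), had the best supported of the large folds. It had 1.71, 1.92 and 1.66 FPKM in LenR (298, 364 and 348 reads) and 0.0286, 0.0755 and 0.0343 FPKM in WT (6, 15 and 6 reads). SH3RF2, a RING and SH3 domain protein on the same chromosome, had 2.44, 3.80 and 2.80 FPKM in LenR and 0.150, 0.258 and 0.0450 FPKM in WT. Its 12.4-fold difference came with a wide spread, as LenR replicate 2 was the highest of its group and WT replicate 3 the lowest of its own. ZBTB47, a BTB zinc finger gene, had 2.40, 2.49 and 2.32 FPKM in LenR and 0.124, 0.121 and 0.0870 FPKM in WT.

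Among the lower members the largest folds were those of RIMBP2 and PXDN. RIMBP2, which encodes a synaptic RIM-binding protein (chromosome 12, 130396133 to 130716299), had 0.0326, 0.01997 and 0.0452 FPKM in LenR and 0.947, 1.13 and 1.41 FPKM in WT. PXDN, the peroxidasin that cross-links collagen IV in basement membranes (chromosome 2, 1631887 to 1744901), had 0.0201, 0.0553 and 0.00835 FPKM in LenR and 1.05, 0.934 and 0.969 FPKM in WT. Both genes had hardly any reads in LenR, such as 2, 6 and 1 for PXDN, against 126, 106 and 97 in WT. TFCP2, a transcription factor of the grainyhead-related CP2 family (chromosome 12), had 0.481, 0.561 and 0.400 FPKM in LenR and 4.27, 4.08 and 4.40 FPKM in WT, a 7.49-fold difference with little spread in either group. Its relative UBP1 was at 28.0 ± 1.93 FPKM in LenR and 26.3 ± 0.490 FPKM in WT (limma adjusted p = 0.487), and GRHL1 rose to 2.72 ± 0.129 FPKM in LenR, against 1.58 ± 0.168 FPKM in WT (adjusted p = 0.00262).

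RASAL1, an activator of RAS GTP hydrolysis, had 0.309, 0.205 and 0.172 FPKM in LenR and 1.81, 2.01 and 2.09 FPKM in WT. The noncoding AFAP1-AS1 had 0.829, 0.734 and 0.724 FPKM in LenR and 4.88, 5.07 and 4.68 FPKM in WT. AP3B2, a neuronal subunit of the AP-3 vesicle adaptor, had 0.127, 0.0333 and 0.0302 FPKM in LenR and 0.843, 0.749 and 0.922 FPKM in WT. The 2 LenR libraries other than replicate 1 held 2 AP3B2 reads each. LRRC3, a leucine-rich repeat gene, averaged 0.0680 FPKM in LenR and 0.827 FPKM in WT, C2orf54 0.0993 FPKM in LenR and 0.854 FPKM in WT, and SH3BP4, a regulator of transferrin receptor uptake, 0.598 FPKM in LenR and 3.38 FPKM in WT.

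**Figure D2:**
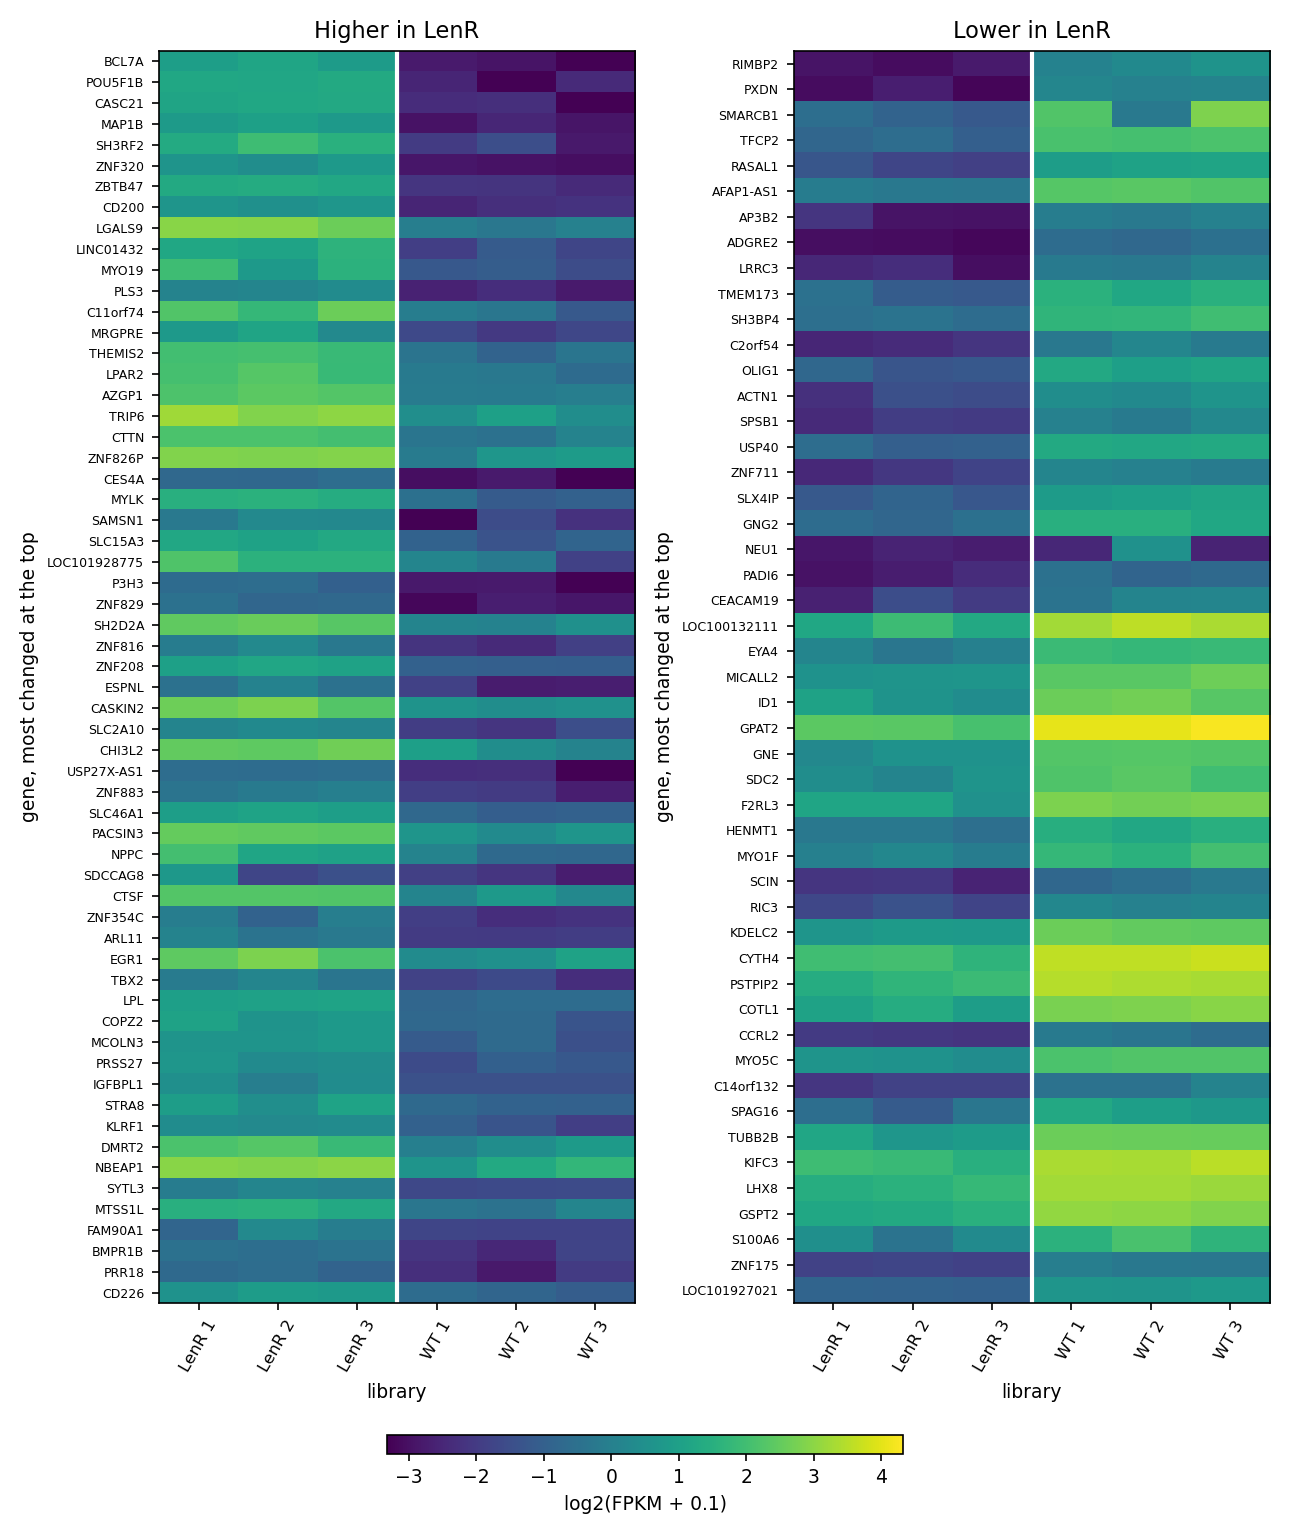
Level of the members in every library, as log2(FPKM + 0.1), with LenR replicates left of WT replicates, higher members in the left panel and lower members in the right panel, ordered by fold. Most rows are uniform within a group; NEU1, SDCCAG8 and SMARCB1 show single libraries unlike the rest of their group, and the SAMSN1 value of WT replicate 1 is 0.

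The promoters of genes with the largest folds each way, 250 bases before and 50 after the annotated start, are shown (those of POU5F1B and CASC21 are not) because promoter composition is compared over the members further on. The sequences are those of RefSeq on GRCh38.p14 in the direction of transcription, 5′ to 3′, in lower case, with matches on either strand to 5 motifs in capitals: the TATA box (TATAAA), the GC box (GGGCGG), the E-box (CACGTG), the AP-1 site (TGANTCA) and the CRE (TGACGTCA).
BCL7A, chr12:122021634-122021933, plus strand, higher in LenR: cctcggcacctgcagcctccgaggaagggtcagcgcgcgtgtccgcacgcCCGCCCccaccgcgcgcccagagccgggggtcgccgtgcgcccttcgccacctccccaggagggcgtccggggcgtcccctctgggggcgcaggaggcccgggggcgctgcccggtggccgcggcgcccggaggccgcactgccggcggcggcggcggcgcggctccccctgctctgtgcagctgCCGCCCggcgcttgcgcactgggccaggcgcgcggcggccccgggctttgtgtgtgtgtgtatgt
MAP1B, chr5:72107225-72107524, plus strand, higher in LenR: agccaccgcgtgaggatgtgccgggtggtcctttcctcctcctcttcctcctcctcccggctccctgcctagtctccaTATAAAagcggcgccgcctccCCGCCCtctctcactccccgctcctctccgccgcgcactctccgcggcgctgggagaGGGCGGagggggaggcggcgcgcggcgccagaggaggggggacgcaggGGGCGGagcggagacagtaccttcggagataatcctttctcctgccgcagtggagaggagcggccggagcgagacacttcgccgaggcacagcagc
SH3RF2, chr5:145936328-145936627, plus strand, higher in LenR: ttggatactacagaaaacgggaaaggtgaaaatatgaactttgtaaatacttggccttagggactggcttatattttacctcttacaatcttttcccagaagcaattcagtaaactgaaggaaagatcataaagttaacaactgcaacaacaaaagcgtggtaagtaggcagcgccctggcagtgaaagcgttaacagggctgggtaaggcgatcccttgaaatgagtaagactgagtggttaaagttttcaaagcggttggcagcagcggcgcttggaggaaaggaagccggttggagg
RIMBP2, chr12:130715524-130715823, minus strand, lower in LenR: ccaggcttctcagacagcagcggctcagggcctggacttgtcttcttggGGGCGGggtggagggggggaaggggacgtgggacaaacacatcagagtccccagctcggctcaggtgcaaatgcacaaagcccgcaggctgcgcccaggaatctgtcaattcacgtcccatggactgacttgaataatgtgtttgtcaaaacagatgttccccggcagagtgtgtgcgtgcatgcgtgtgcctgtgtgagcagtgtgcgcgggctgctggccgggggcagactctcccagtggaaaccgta
PXDN, chr2:1744466-1744765, minus strand, lower in LenR: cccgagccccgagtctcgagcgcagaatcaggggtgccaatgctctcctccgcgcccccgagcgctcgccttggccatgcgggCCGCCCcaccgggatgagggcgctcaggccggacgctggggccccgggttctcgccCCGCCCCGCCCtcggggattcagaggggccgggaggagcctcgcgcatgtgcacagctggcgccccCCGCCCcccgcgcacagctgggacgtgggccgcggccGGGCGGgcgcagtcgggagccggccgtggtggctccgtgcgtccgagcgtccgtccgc
SMARCB1, chr22:23786716-23787015, plus strand, lower in LenR: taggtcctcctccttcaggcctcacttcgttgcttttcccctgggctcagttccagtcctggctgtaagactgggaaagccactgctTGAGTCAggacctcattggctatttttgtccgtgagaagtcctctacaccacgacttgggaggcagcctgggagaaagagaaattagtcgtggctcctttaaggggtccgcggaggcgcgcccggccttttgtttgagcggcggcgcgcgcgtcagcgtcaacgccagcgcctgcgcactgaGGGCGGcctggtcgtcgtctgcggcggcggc

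These 6 windows ran from 44.3% GC with 9 CpG in SH3RF2 to 80.3% GC with 44 CpG in BCL7A. A window was called CpG-rich at a GC content of at least 50% and an observed over expected CpG ratio of at least 0.6. Of the 48 higher members with a promoter in the table, 25 (52.1%) were CpG-rich, of the 35 lower members 25 (71.4%), and of all 10036 genes of the table with a promoter 80.5%. Among genes below the table's median level the share was 73.8%, close to the share of the lower members and above that of the higher members. The median number of CpG per window was 16.5 in higher members, 23 in lower members and 26 over all genes. A GC box was found in 43.8% of higher, 60% of lower and 69.6% of all promoters, and a TATA box in 10.4%, 14.3% and 5.43%. The AP-1 site was in 10.4%, 11.4% and 4.35%, the E-box in 10.4%, 8.57% and 10.3%, and the CRE in 2.08%, 2.86% and 3.3%. The TATA box and AP-1 shares rest on 5 and 5, and on 5 and 4, promoters of the higher and lower members. These shares describe the windows, and a motif match is no evidence of a factor's binding.

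Of 121 genes of immune surface receptors and CD antigens in the table, CD200, CD226 and KLRF1 were members, all higher (2.48%, beside 0.478% of the whole table). A further 2 genes of this class met the limits on the lower side but are left out by the rule by name, and the receptor genes ADGRE2 and CCRL2, described with the G protein-coupled receptors, were lower members. CD200, a surface glycoprotein that restrains myeloid cells through its receptor CD200R1 (chromosome 3, 112332573 to 112362812), had 1.5, 1.32 and 1.52 FPKM in LenR and 0.0747, 0.105 and 0.120 FPKM in WT. The groups stood 7.75-fold apart, with 159 reads in LenR and 11 in WT. CD200R1 was at 7.65 ± 0.246 FPKM in LenR and 7.75 ± 0.546 FPKM in WT (adjusted p = 0.923 by limma). CD226, the activating receptor DNAM-1 of natural killer and T cells (chromosome 18, 69853274 to 69961773), had 1.38, 1.77 and 1.63 FPKM in LenR and 0.546, 0.466 and 0.380 FPKM in WT, and fell below the fold limit when LenR replicate 2 (2.84), LenR replicate 3 (2.97) or WT replicate 3 (2.79) was left out. TIGIT, the inhibitory receptor that shares ligands with CD226, is no member and fell to 3.20 ± 0.450 FPKM in LenR, against 9.01 ± 0.710 FPKM in WT (log2 fold change −1.26, SE 0.096, adjusted p = 0.000183). KLRF1, the natural killer receptor NKp80, had 1.22, 1.12 and 1.201 FPKM in LenR and 0.414, 0.292 and 0.166 FPKM in WT, and also left the set without WT replicate 3 (2.83). CD3E and GNLY were the T and NK markers with a value, at 1.96 and 2.61 FPKM for CD3E and 1.59 and 1.26 FPKM for GNLY (LenR and WT), and CD3D, CD2, CD8A, NKG7 and KLRD1 were not among the table's genes.

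LGALS9, which encodes galectin-9, a lectin and ligand of the inhibitory receptor TIM-3, had the highest level among the 9 higher members with the largest folds (chromosome 17, 27631188 to 27649560). It had 7.75, 7.51 and 5.93 FPKM in LenR and 0.872, 0.718 and 0.931 FPKM in WT. The lowest LenR library, replicate 3, was at 6.37 times the highest WT library. Its relatives LGALS1, LGALS3 and LGALS8 did not pass the threshold (adjusted p = 0.507, 0.196 and 0.176 by limma). The other adhesion members were lower. SDC2, the heparan sulfate proteoglycan syndecan-2, had 1.24, 0.996 and 1.46 FPKM in LenR and 4.53, 5.04 and 3.83 FPKM in WT. CEACAM19 averaged 0.156 FPKM in LenR and 0.886 FPKM in WT, and overlaps PVR (1.82 FPKM in LenR and 9.08 FPKM in WT), one of the genes the rule leaves out, so reads of the overlap may be shared.

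The adaptor genes THEMIS2, SH2D2A and SAMSN1 were higher members outside the classes, and are named after their values were seen. THEMIS2, a signalling scaffold of B cells and macrophages, averaged 3.86 ± 0.284 FPKM in LenR and 0.597 ± 0.134 FPKM in WT. SH2D2A, an adaptor of activated T cells, had 5.401, 5.92 and 4.90 FPKM in LenR and 0.989, 0.949 and 1.34 FPKM in WT. SAMSN1, an adaptor of B cells, had 0.752, 1.10 and 1.09 FPKM in LenR and 0, 0.245 and 0.111 FPKM in WT. All 3 solute carriers among the members were higher, of 244 genes of that class with the ATP-binding cassette transporters (1.23%, beside 0.478% of the whole table). The rule leaves out 1 more higher gene of that class by name. SLC15A3, a lysosomal transporter of histidine and peptides, averaged 2.22 and 0.390 FPKM, SLC46A1, the proton-coupled folate transporter, 1.91 and 0.437 FPKM, and SLC2A10, the glucose transporter GLUT10, 1.05 and 0.183 FPKM in LenR and WT. The lysosomal protease cathepsin F gene, CTSF, had 4.71, 4.76 and 4.63 FPKM in LenR and 0.991, 1.65 and 1.09 FPKM in WT. MCOLN3, a lysosomal cation channel gene, averaged 1.52 FPKM in LenR and 0.384 FPKM in WT (2.97-fold without WT replicate 3). The lysosomal gene NEU1 and the macrophage gene PSTPIP2, described further on, were lower members.

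STING, the adaptor of the cytosolic DNA sensing pathway, was lower in LenR. Its gene TMEM173 (chromosome 5, 139475533 to 139482758) had 0.622, 0.372 and 0.337 FPKM in LenR and 2.84, 2.27 and 2.76 FPKM in WT, a 5.01-fold difference. The 3 LenR libraries held 20, 13 and 13 reads and the WT libraries 110, 83 and 89. The sensor gene MB21D1 (cGAS) was at 23.4 ± 0.827 and 22.6 ± 0.512 FPKM in LenR and WT, and 0 of the 7 other pathway genes tested passed the threshold (limma, adjusted p from 0.142 to 0.781). No interferon-stimulated gene was a member. Of 35 that were tested, 4 rose and 14 fell, where 8.57% and 6.57% of all genes did, and the median log2 fold change was −0.22. OAS1 rose (log2 fold change 0.98, adjusted p = 0.000125) and IFI44 fell (−1.17, adjusted p = 0.0001). Calls thus went both ways, with more falls than rises.

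**Figure D3:**
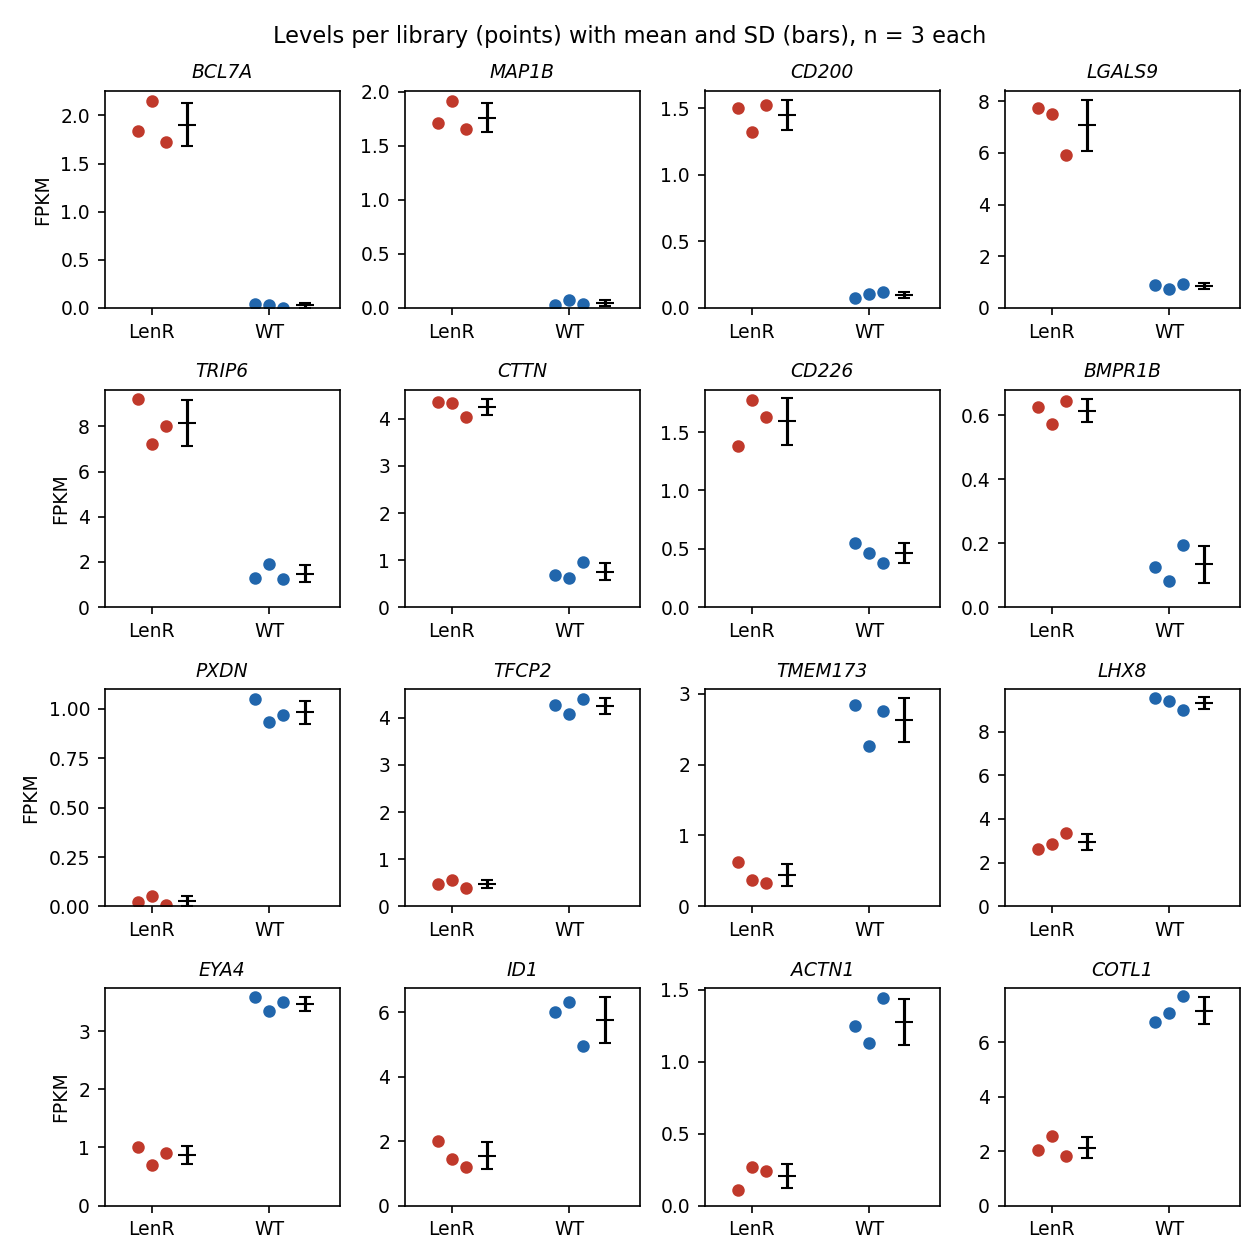
Level of 16 members per library in FPKM (points, LenR left of WT) with mean and SD (bars, n = 3 each) on axes from 0. The first 8 panels are higher and the last 8 lower in LenR. In every panel the lowest point of one group lies above the highest point of the other, as the rule requires.

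Cytoskeletal genes formed the class with the most members. Of 178 actin, myosin, microtubule and intermediate filament genes, 3 (1.69%) were higher and 7 (3.93%) lower, beside 0.478% and 0.392% of the whole table. Of the 138 tested genes that are no members, 11 rose and 18 fell, where 8.57% and 6.57% of all genes did. Besides MAP1B, the higher ones were MYO19, a mitochondrial myosin, and PLS3, an actin-bundling plastin of solid tissues. MYO19 had 3.73, 1.67 and 2.92 FPKM in LenR and 0.330, 0.381 and 0.245 FPKM in WT, with LenR replicate 2 well below the others of its group. It overlaps ZNHIT3 on the opposite strand, which was at 3.56 FPKM in LenR and 3.36 FPKM in WT. PLS3 (chromosome X) had 0.966, 1.01 and 1.18 FPKM in LenR and 0.0668, 0.0990 and 0.0481 FPKM in WT. The leukocyte plastin gene LCP1 was far more abundant, at 362 ± 24.2 and 357 ± 10.0 FPKM in LenR and WT (adjusted p = 0.92 by limma).

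The 7 lower cytoskeletal members were ACTN1, KIFC3, MYO1F, MYO5C, PSTPIP2, SCIN and TUBB2B. KIFC3, a minus-end-directed kinesin gene, had 3.76, 3.51 and 2.73 FPKM in LenR and 10.21, 9.86 and 11.5 FPKM in WT. PSTPIP2, an F-BAR protein of macrophages that binds actin, had 2.54, 3.11 and 3.63 FPKM in LenR and 11.1, 10.4 and 9.87 FPKM in WT. ACTN1, which encodes the actin cross-linker alpha-actinin-1 (chromosome 14), had 0.109, 0.266 and 0.241 FPKM in LenR and 1.25, 1.13 and 1.44 FPKM in WT. The lowest WT value was 2.62, 2.72 and 4.24 times the highest LenR value in KIFC3, PSTPIP2 and ACTN1, and the lack of overlap is part of the rule. The unconventional myosins MYO1F and MYO5C averaged 0.929 and 1.35 FPKM in LenR, against 3.38 and 4.55 FPKM in WT. SCIN, a calcium-dependent actin-severing gene of the gelsolin family, averaged 0.1095 FPKM in LenR and 0.606 FPKM in WT, on 17 reads in LenR and 96 in WT. TUBB2B, a beta-tubulin gene, averaged 1.81 FPKM in LenR and 5.85 FPKM in WT, and its near-identical relative TUBB2A fell as well (1.57 ± 0.331 FPKM in LenR and 2.89 ± 0.543 FPKM in WT, adjusted p = 0.017 by limma), so reads may have been split between them. KIFC3 left the set without LenR replicate 3 (ratio 0.351) or WT replicate 3 (0.339), and TUBB2B without LenR replicate 2 (0.345). The major alpha-actinin gene here, ACTN4, was at 86.8 ± 12.3 FPKM in LenR and 102 ± 9.66 FPKM in WT (adjusted p = 0.232).

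Further actin regulators lay outside that class and are named after their values were seen. CTTN, which encodes cortactin, an activator of the Arp2/3 actin-branching complex (chromosome 11, 70398529 to 70436575), had 4.35, 4.35 and 4.04 FPKM in LenR and 0.678, 0.625 and 0.959 FPKM in WT. Its blood cell relative HCLS1 was at 347 ± 13.02 FPKM in LenR and 346 ± 11.6 FPKM in WT (adjusted p = 0.985 by limma). The Arp2/3 subunit gene ARPC2 fell to 247 ± 16.03 FPKM in LenR, against 435 ± 0.727 FPKM in WT (adjusted p = 0.000555). MYLK, the myosin light chain kinase, had 2.70, 2.83 and 2.54 FPKM in LenR and 0.606, 0.361 and 0.418 FPKM in WT. TRIP6, a LIM protein of focal adhesions, was the higher member with the highest level, at 9.21, 7.21 and 7.997 FPKM in LenR and 1.27, 1.93 and 1.25 FPKM in WT. PACSIN3, a membrane-bending F-BAR protein, averaged 5.404 ± 0.202 FPKM in LenR and 1.37 ± 0.188 FPKM in WT, and MTSS1L and ESPNL, both of actin-binding families, averaged 2.64 and 0.733 FPKM in LenR, against 0.778 and 0.0947 FPKM in WT.

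On the lower side stood COTL1, coactosin-like protein, which binds filamentous actin (chromosome 16), with 2.03, 2.55 and 1.82 FPKM in LenR and 6.75, 7.08 and 7.70 FPKM in WT. MICALL2, a RAB effector that links to actin, averaged 1.44 ± 0.0405 FPKM in LenR and 5.41 ± 0.630 FPKM in WT. The capping protein gene CAPG, of the same gelsolin family as SCIN, is no member and fell to 0.927 ± 0.0880 FPKM in LenR, against 2.08 ± 0.382 FPKM in WT (adjusted p = 0.00335 by limma). Cytoskeletal genes were thus members in both directions, and the abundant relatives LCP1, HCLS1 and ACTN4 of the scarce members PLS3, CTTN and ACTN1 did not pass the threshold.

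Zinc finger genes named ZNF, ZFP or ZSCAN gave 7 higher and 2 lower members out of 447 (1.57% and 0.447%, beside 0.478% and 0.392% of the whole table). The largest difference was that of ZNF320 (chromosome 19, 52859491 to 52904320), with 1.46, 1.25 and 1.65 FPKM in LenR and 0.0371, 0.0295 and 0.0223 FPKM in WT. ZNF816, 45.1 kb further along, had 0.822, 1.10 and 0.726 FPKM in LenR and 0.124, 0.0875 and 0.174 FPKM in WT. Other genes of this cluster did not follow: ZNF611, ZNF600, ZNF765 and ZNF468 had log2 fold changes of −0.03, 0.04, −0.03 and 0.20 (limma adjusted p = 0.798, 0.863, 0.836 and 0.111). ZNF813 was too low to be tested, with 0.387 and 0.0205 FPKM in LenR and WT. Genes of such clusters share sequence, and the reads of close copies may have been divided among them. ZNF826P, a pseudogene transcript, had 7.24, 7.15 and 7.37 FPKM in LenR and 0.807, 1.52 and 1.72 FPKM in WT, on a counting length of 636 bases. ZNF208 averaged 2.03 ± 0.136 FPKM in LenR and 0.399 ± 0.0150 FPKM in WT. ZNF829, which overlaps ZNF345, ZNF883 and ZNF354C averaged 0.529, 0.783 and 0.711 FPKM in LenR, against 0.0358, 0.126 and 0.128 FPKM in WT. The lower ones, ZNF175 and ZNF711, averaged 0.188 and 0.137 FPKM in LenR, against 0.777 and 0.919 FPKM in WT. ZNF829 dropped below 0.5 FPKM without LenR replicate 1, and ZNF175 had a ratio of 0.347 without WT replicate 1.

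**Figure D4:**
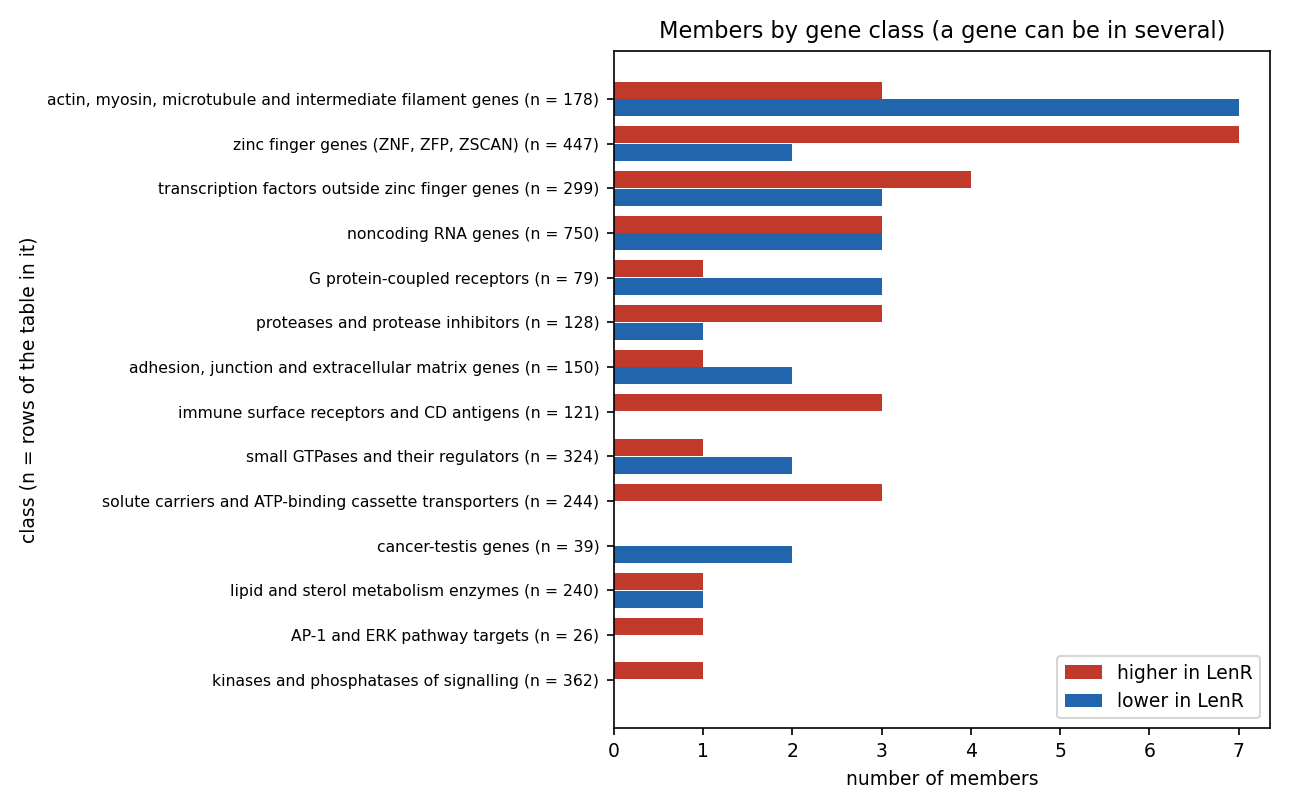
Number of members per gene class, higher in LenR (upper bar of a pair) and lower in LenR (lower bar), for the classes that hold a member, with the number of the table's genes in each class beside its name. Cytoskeletal genes count 3 and 7 members, zinc finger genes 7 and 2, and immune surface receptors and solute carriers 3 and 0 each.

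Of 299 transcription factor genes outside the zinc fingers, 4 were higher members and 3 lower (1.34% and 1%, beside 0.478% and 0.392% of the whole table). EGR1, an immediate early gene downstream of ERK signalling, had 5.30, 6.86 and 4.32 FPKM in LenR and 1.18, 1.33 and 2.03 FPKM in WT. EGR1 was the single member of 26 AP-1 and ERK pathway targets. Of 23 others tested in limma, 6 rose and 5 fell, where 8.57% and 6.57% of all genes did. Among them were CCND1 (log2 fold change 1.25, adjusted p = 6.71e-05), MYC (0.60, adjusted p = 0.0157, not called in 5 of 17 alternatives), FOSB (−0.73, adjusted p = 0.00227) and FOS (−0.58, adjusted p = 0.00459). TBX2, a T-box repressor gene, averaged 0.833 ± 0.167 FPKM in LenR and 0.173 ± 0.0663 FPKM in WT.

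EYA4, a transcriptional coactivator and phosphatase of organ development, was a lower member. EYA4 (chromosome 6, 133240593 to 133532128) had 1.02, 0.706 and 0.905 FPKM in LenR and 3.58, 3.34 and 3.50 FPKM in WT. Both groups were tight, and their separation is part of the rule. Of its relatives, EYA1 was at 10.8 ± 0.422 FPKM in LenR and 9.92 ± 0.245 FPKM in WT (adjusted p = 0.284 by limma). EYA3 rose (log2 fold change 0.28, adjusted p = 0.0257), but this call was lost in 7 of 17 alternatives. LHX8, a homeobox gene of neurons and oocytes, had 2.64, 2.84 and 3.37 FPKM in LenR and 9.53, 9.42 and 9.01 FPKM in WT. OLIG1, a glial bHLH factor gene outside the class by its symbol, averaged 0.371 ± 0.0969 FPKM in LenR and 2.11 ± 0.210 FPKM in WT.

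ID1, an inhibitor of bHLH transcription factors and a target of bone morphogenetic protein (BMP) signalling (chromosome 20, 31605289 to 31606510), had 2.01, 1.43 and 1.21 FPKM in LenR and 6.01, 6.32 and 4.94 FPKM in WT. The related ID2 and ID3 fell too. ID2 was at 22.2 ± 0.773 FPKM in LenR and 37.2 ± 1.99 FPKM in WT (log2 fold change −0.72, SE 0.069, adjusted p = 0.000445 by limma), and ID3 at 3.87 ± 0.189 FPKM in LenR and 7.29 ± 0.240 FPKM in WT (−0.77, SE 0.064, adjusted p = 0.000255). BMPR1B, a type I receptor of the same pathway (chromosome 4, 94757955 to 95158450), was a higher member, with 0.624, 0.573 and 0.645 FPKM in LenR and 0.125, 0.0812 and 0.196 FPKM in WT. It lay just inside the limit and dropped out without LenR replicate 3 (2.988-fold), WT replicate 1 (2.994) or WT replicate 2 (2.744). Of the 9 other BMP genes tested, ACVR2B (log2 fold change 0.37, adjusted p = 0.00964), ACVR1 (0.31, adjusted p = 0.0327) and SMAD7 (0.27, adjusted p = 0.0301) rose, and ID2 and ID3 fell. Over all genes, 8.57% were called higher and 6.57% lower. The calls of ACVR1 and SMAD7 were lost in 9 of 16 and 7 of 17 alternatives. BMPR1A was at 2.73 ± 0.108 FPKM in LenR and 3.34 ± 0.355 FPKM in WT (adjusted p = 0.106). The receptor gene BMPR2, too low to be tested, was at 0.766 ± 0.0579 FPKM in LenR and 1.145 ± 0.0939 FPKM in WT.

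G protein-coupled receptor genes gave 1 higher and 3 lower members out of 79 (1.27% and 3.8%, beside 0.478% and 0.392% of the whole table). LPAR2, a receptor for lysophosphatidic acid, had 4.13, 4.85 and 3.47 FPKM in LenR and 0.794, 0.739 and 0.534 FPKM in WT. F2RL3, the thrombin receptor PAR4, had 2.14, 2.17 and 1.36 FPKM in LenR and 6.91, 6.32 and 6.84 FPKM in WT. F2R, the main thrombin receptor gene PAR1, rose to 5.45 ± 0.274 FPKM in LenR, against 3.65 ± 0.359 FPKM in WT (log2 fold change 0.47, adjusted p = 0.00542 by limma). ADGRE2, an adhesion receptor of myeloid cells, had 0.0212, 0.0195 and 0.00884 FPKM in LenR and 0.546, 0.494 and 0.603 FPKM in WT, which is 5 reads in LenR in all and 172 in WT. CCRL2, an atypical chemokine receptor gene, averaged 0.135 FPKM in LenR and 0.664 FPKM in WT. MRGPRE, a further receptor gene that the class does not hold, was higher, with 1.64, 2.09 and 1.10 FPKM in LenR and 0.220, 0.140 and 0.211 FPKM in WT. GNG2, a G protein gamma subunit gene, averaged 0.541 ± 0.0665 FPKM in LenR and 2.57 ± 0.261 FPKM in WT, and CYTH4, an exchange factor for ARF GTPases in blood cells, had 3.85, 4.00 and 3.03 FPKM in LenR and 12.04, 11.9 and 13.1 FPKM in WT.

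GPAT2, a mitochondrial acyltransferase of the testis that takes part in piRNA production in mice, was the lower member with the highest level (chromosome 2, 96021946 to 96036265). It had 5.16, 5.07 and 4.15 FPKM in LenR and 16.3, 16.5 and 18.7 FPKM in WT. GPAT2 and LHX8 were the 2 members among 39 genes of the cancer-testis class, both lower (5.13%, beside 0.392% of the whole table). Of 34 others tested, 3 rose and 2 fell, where 8.57% and 6.57% of all genes did. LHX8 left the set without LenR replicate 1 (ratio 0.340). Named after their values were seen, HENMT1, the methyltransferase of piRNA ends, averaged 0.690 ± 0.0882 FPKM in LenR and 2.58 ± 0.239 FPKM in WT, and PADI6, an egg protein gene, 0.0589 FPKM in LenR and 0.529 FPKM in WT, on 7 reads in LenR and 62 in WT. STRA8, which starts meiosis in mice, was higher, at 1.798, 1.27 and 2.07 FPKM in LenR and 0.517, 0.425 and 0.414 FPKM in WT, and DMRT2 averaged 4.24 ± 0.683 FPKM in LenR and 1.27 ± 0.394 FPKM in WT. The fold of STRA8 was 2.96 without LenR replicate 3, and that of DMRT2 2.945 without LenR replicate 2 and 2.79 without WT replicate 1.

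Other members encode enzymes and secreted proteins. GNE, the first enzyme of sialic acid synthesis, had 1.09, 1.39 and 1.38 FPKM in LenR and 4.70, 4.88 and 4.65 FPKM in WT. The later enzymes of the route were not called: NANS, NANP and CMAS had log2 fold changes of 0.14, 0.02 and 0.04 (limma adjusted p = 0.281, 0.9 and 0.876). AZGP1, a secreted lipid-mobilising glycoprotein, had 4.45, 5.19 and 4.79 FPKM in LenR and 0.811, 0.763 and 0.866 FPKM in WT. CHI3L2, a secreted chitinase-like protein, averaged 5.69 ± 0.489 FPKM in LenR and 1.36 ± 0.462 FPKM in WT. LPL, the lipoprotein lipase, averaged 1.99 ± 0.0848 FPKM in LenR and 0.522 ± 0.0439 FPKM in WT. GSPT2, a translation termination factor gene, averaged 2.5 ± 0.282 FPKM in LenR and 7.86 ± 0.582 FPKM in WT. Its near copy GSPT1, which other cereblon ligands send for degradation, was at 34.7 ± 0.986 FPKM in LenR and 34.3 ± 0.776 FPKM in WT (adjusted p = 0.909). CASKIN2, a scaffold gene that overlaps KIAA0195, averaged 5.91 ± 1.11 FPKM in LenR and 1.34 ± 0.0994 FPKM in WT. USP40, a deubiquitinase gene, averaged 0.458 ± 0.0915 FPKM in LenR and 2.35 ± 0.0673 FPKM in WT, and PRSS27, a serine protease gene, 1.31 ± 0.176 FPKM in LenR and 0.325 ± 0.0894 FPKM in WT. ARL11, a small GTPase gene, averaged 0.794 ± 0.160 FPKM in LenR and 0.153 ± 0.00982 FPKM in WT.

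Noncoding RNA genes were 3 of the higher and 3 of the lower members by symbol, out of 750 (0.4% each way, beside 0.478% and 0.392% of the whole table). LINC01432 had 2.23, 2.05 and 2.96 FPKM in LenR and 0.168, 0.356 and 0.202 FPKM in WT. LOC101928775 averaged 3.48 ± 0.959 FPKM in LenR and 0.659 ± 0.437 FPKM in WT, and USP27X-AS1 0.565 ± 0.0123 FPKM in LenR and 0.0683 ± 0.0592 FPKM in WT. On the lower side, LOC100132111 averaged 2.75 ± 0.784 FPKM in LenR and 10.4 ± 1.14 FPKM in WT, and LOC101927021 0.436 ± 0.0192 FPKM in LenR and 1.53 ± 0.129 FPKM in WT. NBEAP1, a pseudogene transcript, averaged 7.69 ± 0.289 FPKM in LenR and 2.38 ± 0.896 FPKM in WT on a counting length of 274 bases, 0.0743 of its GENCODE exons. Protein-coding genes were 55 of the 61 higher members and 47 of the 50 lower, 90.2% and 94%, beside 90.9% of the table.

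The remaining members were mostly scarce in both groups. C11orf74, which encodes a protein associated with intraflagellar transport, had 4.61, 3.29 and 5.92 FPKM in LenR and 0.850, 0.700 and 0.340 FPKM in WT. CES4A, a carboxylesterase gene, had 65 reads in LenR and 3 in WT, a ratio of 22.2 (95% interval 7.26 to 110, counting error only). P3H3, a collagen prolyl hydroxylase gene, had 64 reads in LenR and 4 in WT. COPZ2, a coatomer subunit gene, averaged 1.71 ± 0.288 FPKM in LenR and 0.438 ± 0.123 FPKM in WT, and SYTL3, of the synaptotagmin-like family, 0.928 ± 0.0971 FPKM in LenR and 0.227 ± 0.01002 FPKM in WT. FAM90A1, which has many close copies, averaged 0.803 ± 0.322 FPKM in LenR and 0.195 ± 0.00742 FPKM in WT, and IGFBPL1, whose counting length was 3.26 times its GENCODE exons, 1.13 ± 0.227 FPKM in LenR and 0.271 ± 0.00156 FPKM in WT. On the lower side, KDELC2, a protein glucosyltransferase gene of the endoplasmic reticulum, averaged 1.595 ± 0.109 FPKM in LenR and 5.56 ± 0.330 FPKM in WT. SLX4IP, which encodes a partner of the SLX4 nuclease scaffold, averaged 0.372 ± 0.0670 FPKM in LenR and 1.91 ± 0.176 FPKM in WT. SPSB1, a SOCS box ubiquitin ligase adaptor gene, averaged 0.132 ± 0.0390 FPKM in LenR and 0.927 ± 0.151 FPKM in WT. RIC3, a chaperone gene of nicotinic receptors that overlaps TUB, averaged 0.229 ± 0.0451 FPKM in LenR and 0.9995 ± 0.0669 FPKM in WT. SPAG16, a sperm tail gene, averaged 0.547 ± 0.176 FPKM in LenR and 1.93 ± 0.377 FPKM in WT, and C14orf132 0.166 ± 0.0302 FPKM in LenR and 0.745 ± 0.192 FPKM in WT.

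Of 31 gene classes and lists, 54 members fell in at least 1 and 57 in none. By symbol, no member was among the ion channels, the cytokines and growth factors, the immunoglobulin and MHC genes, the histones, the cytochromes and conjugating enzymes, or the neuronal genes. None was on the B lineage and plasma cell lists (14 and 35 genes in the table). The T and NK, myeloid, epithelial and erythroid lists (5, 6, 7 and 4 genes) held none. Neither did the lists of targets of NF-kB, Wnt, the integrated stress response and p53 (18, 11, 25 and 28 genes). At the table's share of 0.87%, lists this short would hold few members or none. Their genes could still change: in limma, 12 of 25 integrated stress response targets rose and 0 fell, where 8.57% and 6.57% of all genes did. Of 362 kinases and phosphatases by symbol, BMPR1B was the single member. Small GTPase regulators gave 1 higher and 2 lower members of 324 (0.309% and 0.617%), and lipid enzymes 1 and 1 of 240 (0.417% each way). Proteases and inhibitors gave 3 and 1 of 128 (2.34% and 0.781%), where the higher count takes in USP27X-AS1, a noncoding RNA matched by its name. The shares over the whole table were 0.478% and 0.392%. Classes by symbol miss genes with other names, such as the channel gene MCOLN3, the kinase gene MYLK, the phosphatase gene EYA4, and CTTN, MRGPRE, OLIG1 and TFCP2. The neuronal class likewise does not hold the members MAP1B, RIMBP2 and AP3B2. The cell type lists do not hold the members ADGRE2, PSTPIP2, CD226, KLRF1 and SH2D2A, described above as genes of such cells.

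Of the 111 members, 29 left the set when a single library was left out, 18 of the 61 higher and 11 of the 50 lower. For 25 the fold went below 3, and for CES4A, P3H3, PADI6 and ZNF829 the larger group mean went below 0.5 FPKM. Besides those given above or below, the folds of COPZ2 (2.97), FAM90A1 (2.55), MTSS1L (2.88), NBEAP1 (2.655), PRR18 (2.64), PRSS27 (2.99) and SYTL3 (2.99) were lowest among the higher ones without such a library. On the lower side the WT over LenR folds went down to 2.76 for C14orf132, 2.93 for GSPT2, 2.897 for LOC101927021 and 2.745 for SPAG16. NEU1, the lysosomal sialidase, had 0.0373, 0.0686 and 0.0518 FPKM in LenR and 0.0791, 1.37 and 0.0702 FPKM in WT. All but WT replicate 2, with 376 reads, were near each other, and without that library the LenR over WT ratio was 0.873. Its counting length of 16568 bases was 3.44 times the union of its GENCODE exons, and reads from outside those exons cannot be told apart here. SDCCAG8, a centrosome gene, had 1.59, 0.205 and 0.262 FPKM in LenR and 0.174, 0.127 and 0.0523 FPKM in WT, and the fold was 1.53 without LenR replicate 1. NPPC, which encodes C-type natriuretic peptide, had 4.02, 2.16 and 1.96 FPKM in LenR and 0.976, 0.516 and 0.488 FPKM in WT, and its fold was 2.84 without LenR replicate 1. S100A6, a calcium-binding protein gene, had 1.31, 0.647 and 1.17 FPKM in LenR and 2.92, 4.24 and 3.01 FPKM in WT, and left the set without LenR replicate 2 (ratio 0.384) or WT replicate 2 (0.373). Another 3 genes past the fold and level limits overlapped between groups and are no members: CLK2, PIP4K2B and RN7SL1, each of which was low in LenR replicate 2.

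Members were spread over the chromosomes. Chromosome 19 held 6 higher and 5 lower of 841 genes (1.31% in either direction), chromosome 11 6 and 2 of 726 (1.1%), and chromosome 17 6 and 0 of 765 (0.784%). The highest share was that of chromosome 21, with 1 higher and 2 lower of 126 genes (2.38%). Chromosome 2 held 2 and 6 of 823 (0.972%), chromosome 14 0 and 4 of 385 (1.04%), and chromosome 10 none of 495. The share over the whole table was 0.87%. CASC21 with POU5F1B and ZNF320 with ZNF816 were the pairs of members within 100 kb of each other. To see whether members moved with their surroundings, the log2 folds (0.1 FPKM added, as in the rule) of the other tested genes within 1 Mb were taken where there were at least 5. For the 44 higher members the median of these neighbourhood medians was 0.02 (−0.45 to 0.37), for the 39 lower members −0.04 (−0.78 to 0.69), and over all 9587 such genes 0.007. Neighbourhoods at least 0.3 from 0 were 3 (6.8%), 4 (10.3%) and 511 (5.3%), so most members lay among genes whose median change was near 0.

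A few members lay where many genes had shifted. Around BCL7A, 23 of 24 neighbours were above 0, with a median of 0.37. Around MICALL2 on chromosome 7, all 16 were below 0 (median −0.78). On the distal long arm of chromosome 2, USP40 (−0.45) and C2orf54 (−0.41) were lower among lower neighbours, while ESPNL (−0.45) and NPPC (−0.38) were higher among lower neighbours. RASAL1 on chromosome 12 was lower although all 15 neighbours were above 0, with a median of 0.69. Members with 2 to 4 such neighbours, all on the same side of 0, included some with larger medians: 0.87 over 4 of 4 above 0 for POU5F1B and CASC21, −0.84 over 3 of 3 below 0 for SCIN, and −1.11 over 2 of 2 below 0 for SH3BP4. The members' own log2 folds were 3.99 for BCL7A, −1.84 for MICALL2 and −2.14 for USP40, and the part of shared shifts in them was not tested.

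**Figure D5:**
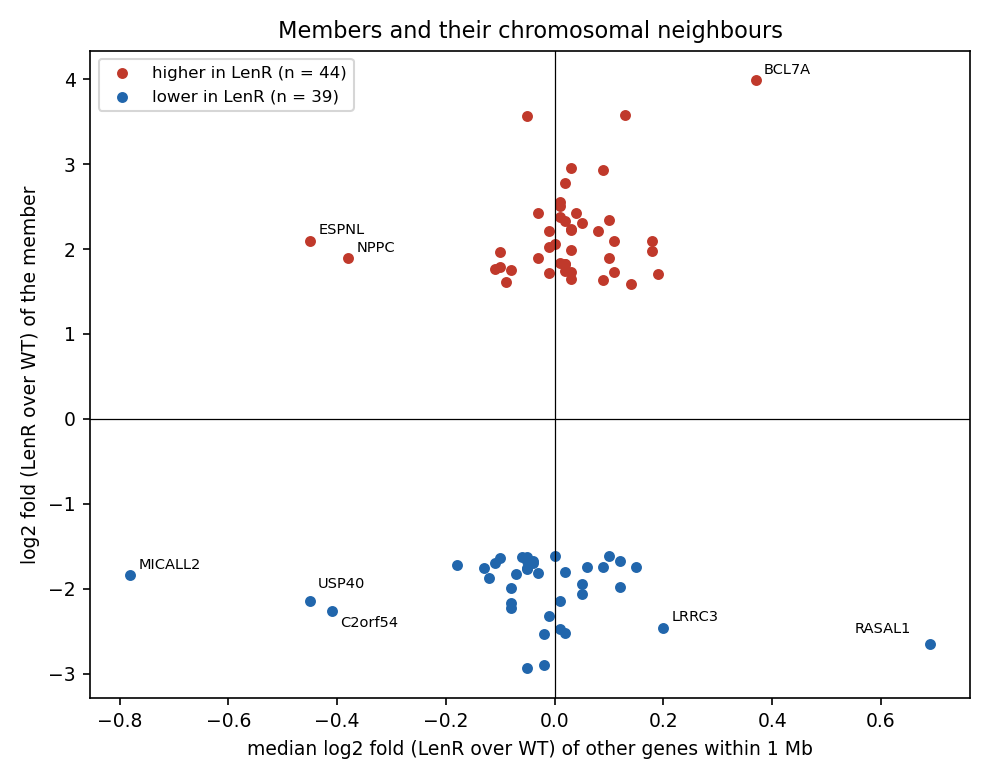
Log2 fold (LenR over WT, rule's ratio) of each member with at least 5 tested genes within 1 Mb, against the median log2 fold change of those genes, for 44 higher and 39 lower members. Most points stand close to the vertical line at 0, and the named ones are those with shifted surroundings.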

How the data were processed

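RNA-seq of 3 LenR and 3 WT cultures was analysed from 1 table of 12760 genes with a column per library. The authors deposited FPKM values. The submitters' processing notes name the build hg38, edgeR 3.40.2, featureCounts 2.0.3, HISAT2 2.2.1 and FastQC 0.11.9, with no role or order. The annotation, strand setting and filter were not given in the sources used here. Columns were matched to samples by the column names in the descriptions.

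The deposited FPKM values of each gene were whole multiples of a step, from which reads and counting lengths were recovered (all 12760 genes within 7.04e-05 of a whole read, 119 after a common factor). The smallest sum over the libraries was 58 reads. On simulated data the recovery step was tested before use. Read ratios were scaled to library totals, with exact conditional binomial 95% intervals, which cover counting error only.

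Genes that are no members were tested with limma 3.58.1 in R 4.3.3 on log2(FPKM + 1), at a mean of at least 1 FPKM (11276 genes), with group as the only term, a trend and Benjamini-Hochberg adjustment over all tested genes (two-sided, threshold 0.05). Such p-values reflect only the spread of these cultures. Positions and promoters came from RefSeq, GRCh38.p14, in which 12543 names (98.3%) had a single position. The exon unions set beside counting lengths came from GENCODE, by gene name.

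The members and gene lists were chosen with earlier results of these data known. A naming rule took 70 members: the 12 with the highest and the 12 with the lowest folds, the 10 with the largest differences each way, up to 3 per class and direction, those at the limit and those paired within 100 kb. Further members were named after their values were seen. Genes outside the list were named as called members of a class, or as partners chosen once the members were known. Some genes are not reported here. The plots were made in matplotlib 3.10.9 under Python 3.11.15.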

Additional observations from a re-analysis of the deposited data

How the results depend on the processing

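The number of members followed the limits. Higher and lower members were 61 and 50 as reported, 26 and 14 with 0.5 FPKM added, 12 and 5 with 1 FPKM added, 190 and 173 at a 2-fold limit, 22 and 10 at a 5-fold limit, and 28 and 29 at a larger group mean of at least 2 FPKM. Leaving out each library gave 58 to 65 higher and 51 to 56 lower members. Of 1443 member folds under the alternatives, 1181 moved by less than the spread between replicates, 262 moved further and 0 changed direction. Most of those that moved further did so when the added FPKM was changed. None did so when libraries were rescaled to equal FPKM totals or by median ratios. The limma counts were 966 higher and 741 lower, 601 and 474 at a mean of at least 5 FPKM, 584 and 468 with WT replicates 1 and 2 averaged, 554 to 911 and 453 to 681 without single libraries, 1030 and 792 without WT replicate 3 and LenR replicate 2, and 496 and 411 with a replicate block. Same-numbered libraries deviated from their group means with correlations of 0.024, −0.557 and −0.683, and other pairs of a LenR and a WT library with −0.489 to 0.686. Deviations from means of 3 libraries cannot settle whether the cultures were paired. Of 1606 values for other genes, 1543 stayed on the same side of the threshold, 61 lost the call and 2 gained it. In 0 did the direction change with a call in either fit, and changes of direction in uncalled genes were not counted. Depth limits the lowest members most, since 36 higher and 16 lower ones had a library under 10 reads. The cause of these changes was not tested.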
